A study of Mus musculus with 8 samples.

Results

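The genes described here are 10 that encode the machinery of MHC class I antigen processing: the heavy chains H2-K1 and H2-D1, the light chain B2m, the peptide transporter and loading genes Tap1, Tap2 and Tapbp, the immunoproteasome subunits Psmb8, Psmb9 and Psmb10, and the transcriptional activator Nlrc5. They were chosen by function, but with earlier results of these data known, so shares among them are a description and no test. All probes of the array whose platform annotation gives one of these symbols were taken. That gave 15 probes of 25697, of which 14 were detected well enough to be tested. RNA came from CD8+ T cells of C57BL/6 mice, the lineage of cytotoxic T cells, with 4 wild type samples and 4 samples from mice lacking ASC, the adaptor protein encoded by Pycard. Each sample was hybridised to 1 single-colour bead array, and the series asks how ASC bears on the differentiation of cytotoxic T cells. Both groups share the strain. No source used here gives the way the allele was made, the age of the mice, or any stimulation or culture time. Whether each replicate is a separate mouse is not stated either, so a p-value here reflects variation among samples that could be technical.

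Class I molecules show peptides from inside the cell to CD8+ T cells. Proteasomes cut proteins into peptides, the Tap1 and Tap2 transporter carries these into the endoplasmic reticulum, and tapasin (Tapbp) and its partners load them onto a heavy chain paired with beta-2 microglobulin (B2m). In cells exposed to interferon gamma, Psmb8, Psmb9 and Psmb10 replace the standard catalytic subunits, and Nlrc5 and the interferon regulatory factor Irf1 act on class I promoters. T cells express class I molecules themselves at high levels.

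Median probe signals lay between 127.9 and 133.8 on the 8 arrays. The share of probes detected (detection p under 0.05) was 42.8% to 44.5% in wild type and 44.9% to 45.4% in the knockout, so the groups did not overlap, and its part in the class I results was not tested. Across probes, arrays correlated at 0.991 to 0.9944 within a group and at 0.9877 to 0.9902 between groups. Pycard was detected on 4 of 4 wild type arrays, at a signal of 500.1 ± 19.0, and on 0 of 4 knockout arrays, at 121.5 ± 2.57 (SD, n = 4 each), which fits the labels. Of the CD8+ T cell markers, Cd8b1 was bright on every array, whereas the single Cd8a probe was detected on none.

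None of the 10 class I genes passed the test, but all 10 had a lower mean in the knockout at their brightest tested probe. limma called 0 members lower and 0 higher at an adjusted p of 0.05, where 0.516% of the 7759 tested genes were called lower and 0.619% higher. The balance of calls moved with the scaling: 46 probes were called lower and 49 higher as reported, 67 and 33 with scaling on the median of all probes, and 42 and 61 with scaling on the median of detected probes. At an unadjusted p under 0.05, 4 of the 14 member probes were lower, where 6.39% of all tested probes were, and 0 were higher, where 6.62% were. The 4 were both Psmb10 probes, Tap1 and 1 of the Tapbp probes, so they stand for fewer genes than probes. In mean, 13 member probes were lower and 1 was higher, against 51.7% and 48.3% of all tested probes. The median log2 difference, knockout minus wild type, was -0.16 over the brightest probes of the members. Over all tested genes it was 0.00022, and 49.9% of these genes were lower at their brightest probe. When arrays were scaled on the median of all probes, the median was -0.27 for the members and -0.08 over all tested probes. In bulk RNA, fewer cells of a type and less RNA per cell cannot be told apart. Levels below are background-corrected, quantile-normalised log2 intensities, which have no unit and are comparable between arrays for 1 probe but not between probes.

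**Figure D1:**
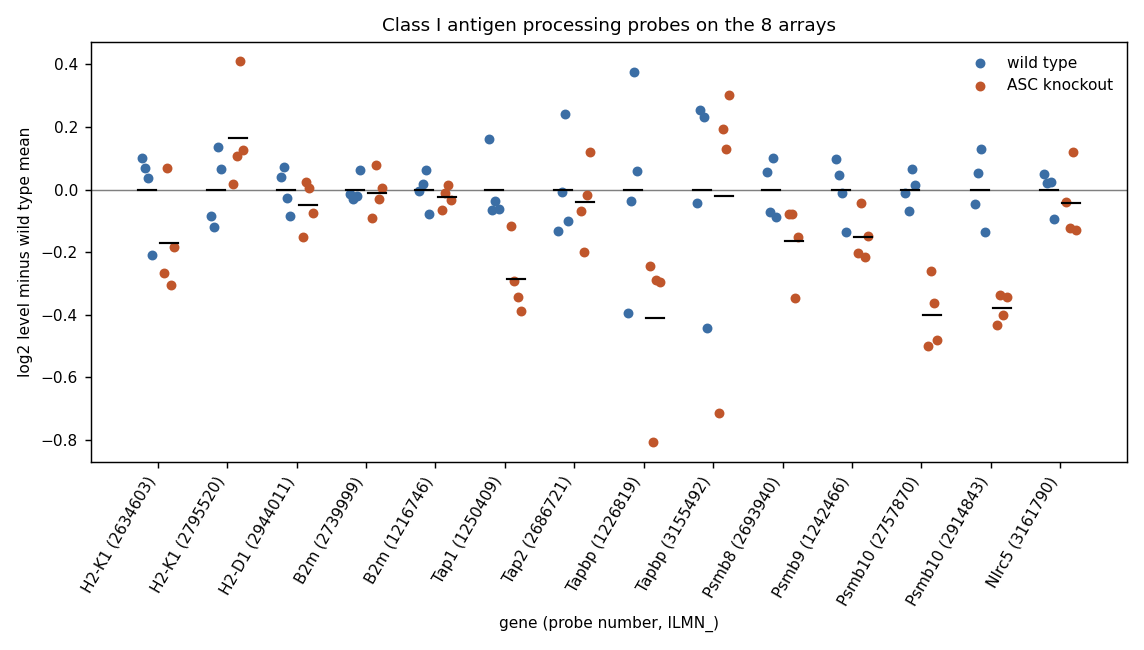
Normalised log2 level of each of the 14 tested member probes on the 8 arrays, drawn relative to the wild type mean of that probe (blue, wild type; orange, ASC knockout; bars, group means; n = 4 arrays per group). Both Psmb10 probes and Tap1 show knockout arrays wholly below wild type, the groups lie on top of each other at both B2m probes, and 1 H2-K1 probe has a higher knockout mean.

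The immunoproteasome subunit Psmb10, which takes the place of Psmb7 in the catalytic core, had the smallest p-value of the members. At probe ILMN_2757870 the log2 level was 12.33, 12.27, 12.41 and 12.36 on the 4 wild type arrays and 11.84, 12.08, 11.98 and 11.86 on the 4 knockout arrays. All knockout arrays lay below all wild type arrays. The difference was -0.40 ± 0.0827 (SE, 95% interval -0.59 to -0.22), or 75.7% of the wild type level, with a limma adjusted p of 0.0600, which just missed the threshold. The second probe, ILMN_2914843, read 12.69, 12.79, 12.86 and 12.60 in wild type and 12.30, 12.40, 12.33 and 12.39 in the knockout. Again the groups were separate, with a difference of -0.38 ± 0.0829 (95% interval -0.56 to -0.19, limma adjusted p = 0.0793). By p-value the probes ranked 120 and 141 of the 11270 tested. Among the 2046 genes with 2 or more tested probes, 1.47% had at least 2 probes that were lower without overlap, as Psmb10 had. In the deposited signals, before any correction, the probes averaged 5587 ± 257 and 7262 ± 556 in wild type against 3869 ± 224 and 5084 ± 149 in the knockout (SD, n = 4 each).

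The call on Psmb10 depended on the processing, while the size of its difference moved little. It passed the threshold under 6 of the 12 alternatives that used all arrays. Its lower adjusted p was 0.0180 with a background offset of 50 in place of 16, 0.00385 without background correction, and 0.00385 in the authors' value table. It was 0.0244 with scaling on the median of all probes, 0.0438 when only probes detected on all 8 arrays were tested, and 0.00168 with a variance trend and robust fitting. It did not pass in any of the 8 fits that left out 1 array, where the lower of the adjusted p-values ran from 0.0621 to 0.143. Over all 20 alternatives and both probes the difference lay between -0.51 and -0.34. Calls on other genes depended on these settings too: of the same 12 alternatives, H2-DMa was called in 7 and Psmb5, Psme1 and Cd1d1 in 4 each.

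**Figure D2:**
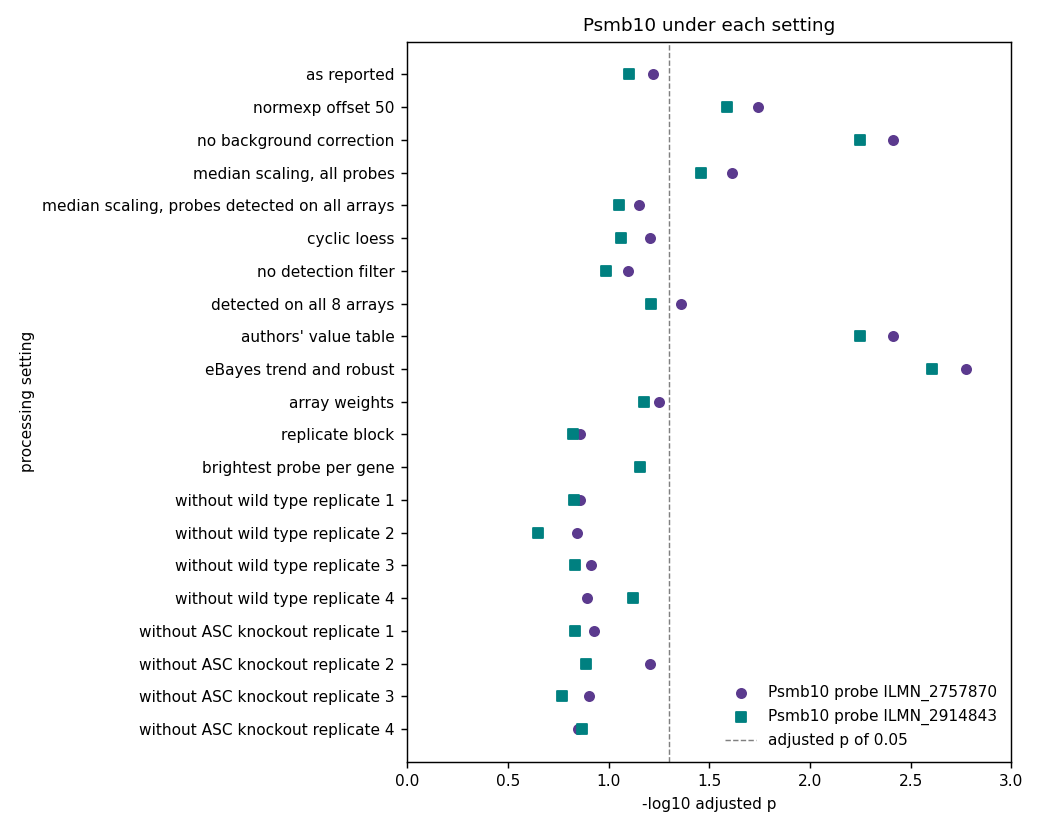
Adjusted p of both Psmb10 probes (x axis, -log10 scale; dashed line, 0.05) in the fit as reported and under each alternative setting. Points to the right of the line pass; the fit as reported lies just to its left, at 0.0600 and 0.0793, and both probes lie left of it in all 8 fits without 1 array.

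The other immunoproteasome subunits were also lower in mean, by smaller amounts. Psmb8, which replaces Psmb5, stood at 10.30, 10.17, 10.34 and 10.15 in wild type and at 10.16, 10.16, 9.89 and 10.09 in the knockout. Its groups overlapped slightly, at a difference of -0.16 ± 0.0906 (SE, 95% interval -0.37 to 0.04, limma adjusted p = 0.494). Psmb9, which replaces Psmb6, read 12.99, 12.94, 12.88 and 12.75 in wild type and 12.68, 12.84, 12.67 and 12.74 in the knockout. The ranges crossed between wild type replicate 4 and knockout replicate 2, and the difference was -0.15 ± 0.0832 (95% interval -0.34 to 0.03, limma adjusted p = 0.485). Before normalisation, all 4 immunoproteasome probes were lower on every knockout array than on every wild type array. Over all 14 member probes that was so for 7 in the deposited signals and for 3, from 2 genes, after normalisation. Of all tested probes, 9.65% and 4.21% were lower in this way. After normalisation 0 member probes were higher without overlap, where 3.91% of tested probes were. The deposited signals as a whole ran lower in the knockout, with 1.08% of probes higher without overlap, so those counts are read after normalisation.

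Each immunoproteasome subunit was then set against the standard subunit it replaces on the same array, a comparison added after the levels were known. The log2 ratio of Psmb10 to Psmb7 was 0.77, 1.11, 1.29 and 0.84 in wild type and 0.70, 0.84, 0.64 and 0.66 in the knockout. The knockout values overlapped with the lower wild type ones, at a difference of -0.29 ± 0.128 (SE, two-sided exact permutation p = 0.0857, adjusted over 5 ratios 0.143). The ratio of Psmb8 to Psmb5 differed in the other direction, by 0.22 ± 0.0825 (exact permutation p = 0.0571, adjusted 0.143), and Psmb5 itself was at -0.38 ± 0.0892 (limma adjusted p = 0.0993). For Psmb9 over Psmb6 the difference was -0.05 ± 0.0949 (exact permutation p = 0.714, adjusted 0.714). With 4 arrays against 4, the smallest p the permutation test can give is 0.0286. The ratio of Psmb10 to B2m was picked after both levels were seen, restates the difference of Psmb10 itself and is given as a description. It was -2.10, -1.98, -1.92 and -2.27 in wild type and -2.41, -2.48, -2.44 and -2.41 in the knockout, a difference of -0.37. Its permutation p is not read as a test. That p was still among the 5 adjusted together, so the adjusted values of the other ratios depend on it.

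**Figure D3:**
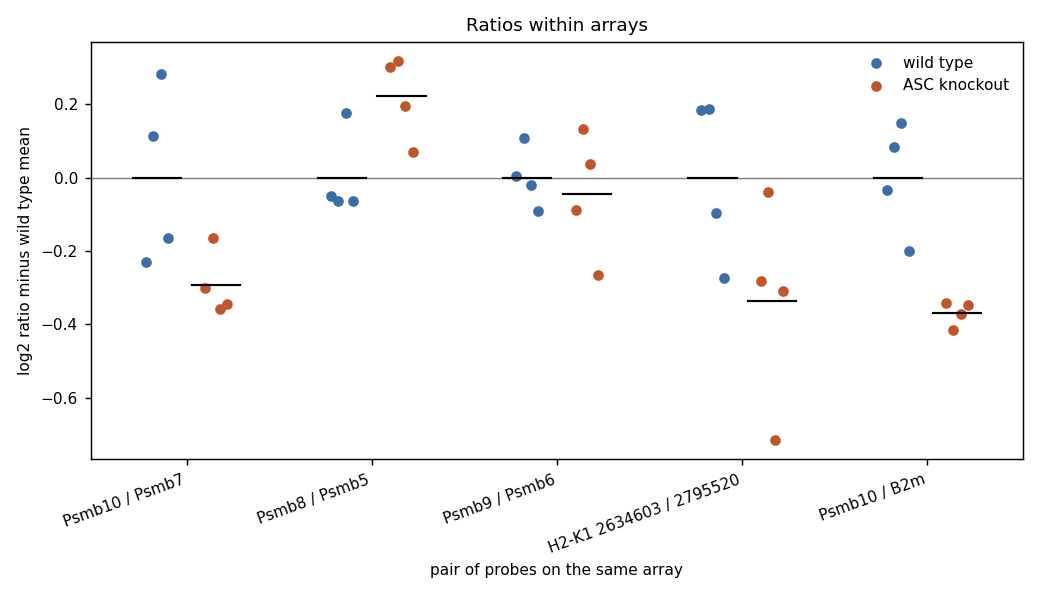
Log2 ratio of pairs of probes on the same array, relative to the wild type mean of each pair (blue, wild type; orange, ASC knockout; bars, group means; n = 4 arrays per group). Psmb10 over B2m, a pair picked after both levels were seen, lies at -0.37, and the groups overlap in the other 4 pairs, of which only Psmb8 over Psmb5 has a higher knockout mean, by 0.22.

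Among the peptide loading genes, the Tap1 half-transporter was lower on each knockout array. Its probe read 9.51, 9.29, 9.31 and 9.29 in wild type and 9.23, 9.06, 9.01 and 8.96 in the knockout. The groups did not overlap, and the knockout mean was 82.0% of wild type (log2 difference -0.29 ± 0.0916, 95% interval -0.49 to -0.08, limma adjusted p = 0.21). Without wild type replicate 1, the highest array, the difference was -0.23. Tap2, its partner in the transporter, showed no such pattern. Its levels were 11.75, 11.88, 12.13 and 11.78 in wild type and 11.82, 11.69, 11.87 and 12.00 in the knockout, fully overlapping, with a difference of -0.04 ± 0.107 (95% interval -0.28 to 0.20, limma adjusted p = 0.909).

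Tapbp encodes tapasin, which bridges the transporter and the empty class I molecule, and its probes disagreed. Both were dim, with mean signals between 194.3 and 270.8 against array medians near 130. Probe ILMN_1226819 read 6.90, 7.26, 7.67 and 7.35 in wild type and 7.05, 6.48, 7.004 and 6.998 in the knockout. Wild type replicate 1 fell within the knockout range, and the difference was -0.41 ± 0.173 (95% interval -0.80 to -0.03, limma adjusted p = 0.349). Without knockout replicate 2, the lowest array, it was -0.28. Probe ILMN_3155492 read 6.46, 6.75, 6.73 and 6.06 in wild type and 5.79, 6.69, 6.63 and 6.80 in the knockout, at -0.02 ± 0.229 (95% interval -0.53 to 0.49, limma adjusted p = 0.977). Its sign turned without knockout replicate 1 (0.21) or without wild type replicate 2 or 3 (0.06 each).

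The genes of the surface molecule itself had 95% intervals that included 0 at every tested probe. B2m probe ILMN_2739999 had deposited signals averaging 29639 ± 969 on wild type arrays against 27383 ± 1015 on knockout arrays (SD, n = 4 each). After normalisation it read 14.79, 14.77, 14.78 and 14.86 in wild type and 14.71, 14.88, 14.77 and 14.81 in the knockout. The arrays of both groups were interleaved, at a difference of -0.0095 ± 0.0744 (95% interval -0.18 to 0.16, limma adjusted p = 0.971) whose sign turned with cyclic loess (0.04). A second probe, ILMN_1216746, was at -0.02 ± 0.0723 (95% interval -0.18 to 0.14, limma adjusted p = 0.925). The third B2m probe, ILMN_2670561, was detected on 0 of 8 arrays, with signals from 110.2 to 123.3, and was not tested.

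The heavy chain H2-K1 had a pair of probes that pointed in opposite directions. Probe ILMN_2634603 read 10.52, 10.49, 10.46 and 10.21 in wild type and 10.15, 10.49, 10.12 and 10.24 in the knockout. At ILMN_2795520 the values were 8.85, 8.81, 9.07 and 8.996 in wild type and 8.95, 9.04, 9.34 and 9.06 in the knockout. The groups overlapped at both, with differences of -0.17 ± 0.108 (95% interval -0.41 to 0.07, limma adjusted p = 0.555) and 0.17 ± 0.105 (95% interval -0.07 to 0.40, limma adjusted p = 0.559). Without knockout replicate 3 the second was 0.083. The log2 ratio of the first probe to the second differed by -0.34 ± 0.18 (exact permutation p = 0.143, adjusted 0.179), and by -0.21 without knockout replicate 3. H2-D1, the other classical heavy chain gene, read 10.22, 10.26, 10.16 and 10.10 in wild type and 10.03, 10.21, 10.19 and 10.11 in the knockout. Its groups overlapped, at -0.05 ± 0.0789 (95% interval -0.23 to 0.13, limma adjusted p = 0.845). As reported, intervals of the tested H2-K1, H2-D1 and B2m probes allow a level at most 1.33-fold lower or 1.32-fold higher in the knockout. These bounds depend on the scaling: H2-K1 probe ILMN_2634603 was at -0.27 ± 0.117 with scaling on the median of all probes. Class I heavy chain genes are close copies of each other, so a probe may also read a neighbouring gene.

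Nlrc5, the activator that binds class I promoters together with other factors, read 10.50, 10.48, 10.48 and 10.36 in wild type and 10.42, 10.33, 10.58 and 10.33 in the knockout. The highest of all 8 values was on a knockout array and the groups overlapped, at -0.04 ± 0.0845 (SE, 95% interval -0.23 to 0.15, limma adjusted p = 0.878).

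Class I genes are known to share regulators, so the promoter windows of the genes of the surface molecule, of Tap1 and of Psmb10 are shown to set the levels above beside the DNA of each gene. RefSeq windows of GRCm38.p6, from 250 bases before to 50 bases after the annotated start of transcription, were found for 8 of the 10 members, not for Tap2 and Nlrc5. They are written 5′ to 3′ on the strand of the gene. Capitals mark matches, on either strand, to 5 sets of letters chosen with earlier results and these sequences in view: AANNGAAA (core of interferon regulatory factor elements), GGGA followed by any 4 bases and CC (NF-kB elements), TGACG (core of cyclic AMP response elements), CCAAT (the box bound by NF-Y) and TTCNNNGAA (gamma activated sites), where N is any base.
H2-K1 (chr17:34000298-34000597, minus strand): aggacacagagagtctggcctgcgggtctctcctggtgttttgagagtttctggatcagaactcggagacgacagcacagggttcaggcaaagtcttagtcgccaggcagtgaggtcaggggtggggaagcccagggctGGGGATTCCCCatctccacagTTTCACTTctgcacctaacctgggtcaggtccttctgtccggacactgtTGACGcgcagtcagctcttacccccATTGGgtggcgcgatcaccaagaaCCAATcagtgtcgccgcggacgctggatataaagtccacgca
H2-D1 (chr17:35262844-35263143, plus strand): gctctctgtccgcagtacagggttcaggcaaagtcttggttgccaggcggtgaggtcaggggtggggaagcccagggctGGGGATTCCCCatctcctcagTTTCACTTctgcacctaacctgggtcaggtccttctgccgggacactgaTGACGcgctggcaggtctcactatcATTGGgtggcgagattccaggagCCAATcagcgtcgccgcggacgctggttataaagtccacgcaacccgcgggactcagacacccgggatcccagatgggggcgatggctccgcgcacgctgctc
B2m (chr2:122147437-122147736, plus strand): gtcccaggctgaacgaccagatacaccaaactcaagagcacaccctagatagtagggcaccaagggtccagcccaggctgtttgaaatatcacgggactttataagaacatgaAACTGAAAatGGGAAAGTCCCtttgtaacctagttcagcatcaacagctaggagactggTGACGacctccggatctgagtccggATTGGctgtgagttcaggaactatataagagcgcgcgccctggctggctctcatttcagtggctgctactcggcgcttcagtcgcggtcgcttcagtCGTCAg
Tap1 (chr17:34187306-34187605, plus strand): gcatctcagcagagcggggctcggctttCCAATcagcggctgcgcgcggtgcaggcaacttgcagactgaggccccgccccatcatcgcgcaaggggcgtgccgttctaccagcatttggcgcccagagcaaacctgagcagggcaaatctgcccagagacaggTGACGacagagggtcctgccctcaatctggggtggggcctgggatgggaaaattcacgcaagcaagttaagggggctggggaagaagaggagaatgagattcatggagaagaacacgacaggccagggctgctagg
Psmb10 (chr8:105938343-105938642, minus strand): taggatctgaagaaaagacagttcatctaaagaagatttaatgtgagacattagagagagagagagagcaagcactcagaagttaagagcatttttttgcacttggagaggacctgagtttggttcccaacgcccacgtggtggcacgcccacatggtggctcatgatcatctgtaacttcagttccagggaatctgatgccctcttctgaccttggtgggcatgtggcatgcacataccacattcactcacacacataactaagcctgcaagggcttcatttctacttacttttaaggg

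H2-K1, H2-D1 and B2m, the genes of the surface molecule, each held the interferon regulatory factor, NF-kB, cyclic AMP response and CCAAT letters. H2-K1 has 2 annotated starts, and the window shown is that of start 1. The window of start 2 (chr17:34000284-34000583, not shown) was the one that aligned better with H2-D1. It matched the H2-D1 window at 180 of 254 aligned bases, or 70.9%. In H2-D1 the interferon regulatory factor letters ran from -150 to -143 and in B2m from -137 to -130, counted from the start of transcription. Tap1 lies head to head with Psmb9, with 226 bases between their starts, so that 275 bases of their windows are the same DNA. That shared stretch held TGACG and CCAAT. The Psmb8 window held TTCNNNGAA from -97 to -89, and the Tapbp window held CCAAT only. The Psmb10 window held none of the 5, which says only that these letters are not in this window. Among all 32851 RefSeq windows, 23.9% held AANNGAAA, 20.7% the NF-kB letters, 20.8% TGACG, 37.4% CCAAT and 8.3% TTCNNNGAA. Of the 8 member genes, 3, 3, 5, 6 and 1 held them in that order. The letters were chosen with these sequences in view, so these counts are no test against the shares. Nor are the counts independent, since Psmb9 and Tap1 share 275 bases of their windows and the H2-K1 and H2-D1 windows are alike. The matches overlap in places, as the NF-kB letters do with their own reverse strand.

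Outside the members, 69 further genes of the class I pathway, its regulators and the class II pathway were listed, also with earlier results known. Of these, 60 had a probe and 45 were tested. Tapbpl and Irf1 fell in the knockout and no gene rose, or 2 of 45, where 1.13% of all tested genes were called in either direction. At the brightest probe 28 were lower and 17 higher, with a median of -0.06. Tapbpl encodes a homologue of tapasin that edits the peptides bound to class I molecules. At probe ILMN_2974611 it read 10.14, 10.21, 10.22 and 10.15 in wild type and 9.81, 9.86, 9.64 and 9.77 in the knockout, without overlap. It fell by 0.41 ± 0.0785 on the log2 scale (limma adjusted p = 0.0476), but the call was lost in each of the 8 fits without 1 array, at adjusted p-values from 0.0641 (without knockout replicate 2) to 0.16 (without wild type replicate 2). It was also lost without the detection filter (adjusted p = 0.0637) and with the replicate number as a block (adjusted p = 0.116). Its dimmer probes were at -0.43 and -0.29 and did not pass (limma adjusted p = 0.307 and 0.571). Of the 4 tested loading genes beyond the members 3 were lower and 1 higher, with a median of -0.19. Calr, the chaperone calreticulin, was at 0.0038 ± 0.107 (limma adjusted p = 0.992), a sign that turned with either median scaling (-0.09 over all probes and -0.0031 over detected ones).

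Irf1 had 5 tested probes, all lower in mean in the knockout. The probe with the smallest p, ILMN_2649068, read 8.64, 8.65, 9.01 and 8.92 in wild type and 7.98, 7.98, 7.92 and 7.98 in the knockout. It fell by 0.84 ± 0.0996 on the log2 scale (limma adjusted p = 0.00479), and this call was kept in each fit without 1 array. Probe ILMN_2649067 fell by 0.69 ± 0.114 (limma adjusted p = 0.0260), but without 1 array it passed only when wild type replicate 1 was left out, and its adjusted p otherwise lay between 0.0510 and 0.0774. The remaining probes, ILMN_2599782, ILMN_2834777 and ILMN_2624100, were at -0.53, -0.46 and -0.18, with limma adjusted p-values of 0.12, 0.184 and 0.567. ILMN_2834777 was the brightest, and when each gene was tested at its brightest probe alone Irf1 was not called. Ifng, the gene for interferon gamma, was at 0.15 ± 0.138 and 0.17 ± 0.127 (limma adjusted p = 0.70 and 0.616). Without 1 array these ran from 0.038 to 0.25 and from 0.10 to 0.29, lowest without knockout replicate 4 at both probes. Creb1, which binds cyclic AMP response elements, was at 0.06 ± 0.0905 and turned to -0.0036 with median scaling over all probes.

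**Figure D4:**
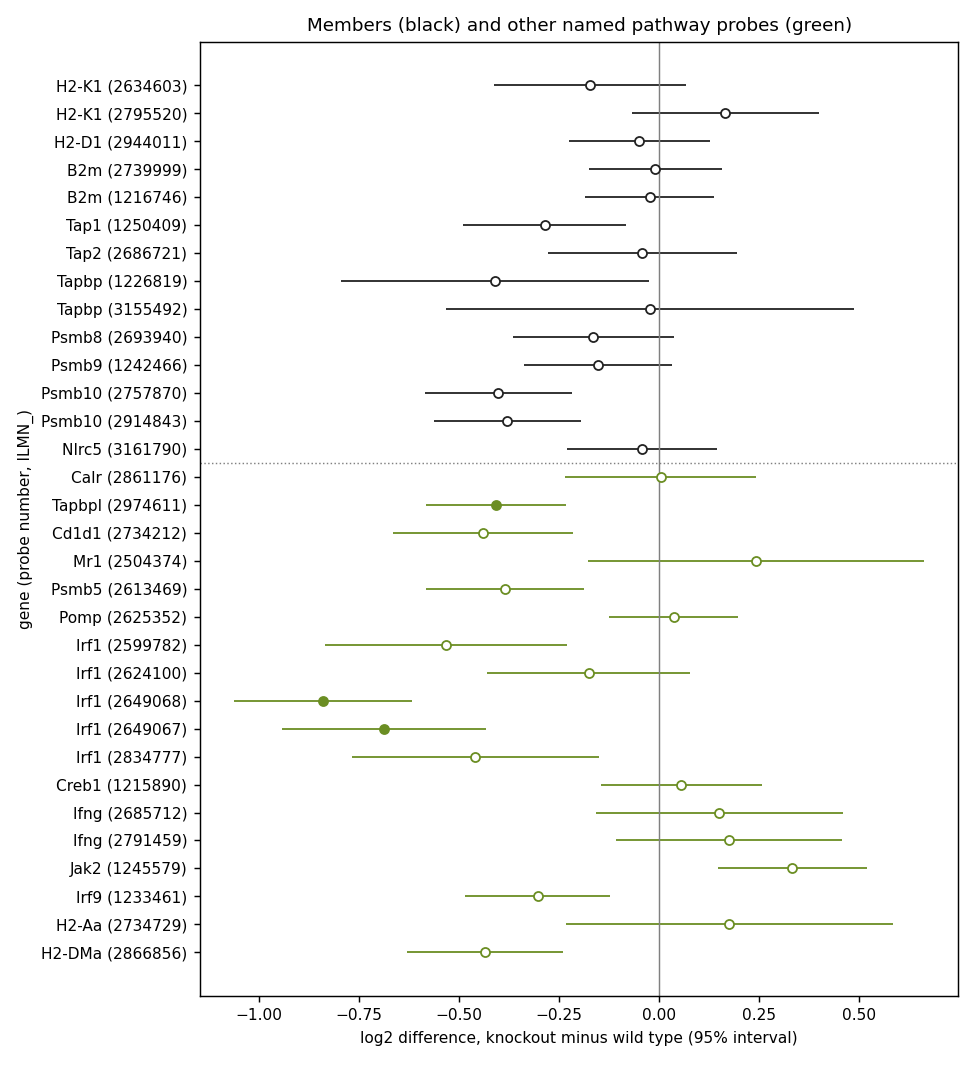
Log2 difference, knockout minus wild type, with its 95% interval, for the 14 tested member probes (black) and the named probes of other class I, interferon and class II genes (green); filled circles pass an adjusted p of 0.05. Filled are Tapbpl (-0.41) and a pair of Irf1 probes (-0.84 and -0.69), and no member is filled.

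Proteasome genes beyond the members, 8 in number, had 7 lower and 1 higher at the brightest probe, a median of -0.10 and 0 called. Psme1, a subunit of the proteasome activator, was at -0.36 ± 0.0923 and -0.32 ± 0.0903 at its probes (limma adjusted p = 0.12 and 0.152), with no overlap between groups at either. The related activator subunit Psme2 was at -0.18 ± 0.0813 (limma adjusted p = 0.376). Pomp, an assembly factor of the proteasome, was at 0.04 ± 0.0726 (limma adjusted p = 0.878), and at -0.08 with median scaling over all probes. Other class I heavy chain genes had 6 lower and 2 higher of 8 tested, with a median of -0.15 and 0 called. The lipid-presenting Cd1d1 was lowest, at -0.44 ± 0.101 (limma adjusted p = 0.0936), and Mr1, detected on 1 wild type and 3 knockout arrays, highest at 0.24 ± 0.189 (limma adjusted p = 0.639). The non-classical H2-T23 was at -0.27 and -0.35 and H2-M3 at -0.25 (limma adjusted p = 0.138, 0.196 and 0.148), each without overlap, while H2-Q7 was at -0.08 and H2-Q8 at -0.06 with overlap. H2-T23, H2-M3, H2-Q7, H2-Q8, Psme1 and Psme2 were picked for mention after their values were seen.

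The medians of the signalling and class II lists lay near 0. Interferon signalling genes had 5 lower and 5 higher of 10 tested, with a median of 0.03 and 0 called. At the brightest probe the kinase gene Jak2 was at 0.33 ± 0.0835 and the interferon-responsive factor Irf9 at -0.30 ± 0.0818, without overlap in either. Their limma adjusted p-values were 0.115 and 0.133. The second tested probes of Jak2 and Irf9 were at 0.13 and -0.42 (limma adjusted p = 0.638 and 0.219), with overlapping groups at both. Of the 7 tested factors of class I promoters, Irf1 among them, 4 were lower and 3 higher, with a median of -0.06. Class II pathway genes had 3 lower and 5 higher of 8, with a median of 0.03 and 0 called. H2-DMa, which exchanges peptides on class II molecules, was at -0.43 ± 0.0876 (limma adjusted p = 0.0566, groups separate, called in 7 of the 12 alternatives that used all arrays) and the chain gene H2-Aa at 0.18 ± 0.184 (limma adjusted p = 0.742). Ciita, the class II counterpart of Nlrc5, was detected on 0 of 8 arrays, whereas Cd74, H2-Aa, H2-Ab1 and H2-Eb1 were detected on all 8.

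Variation between arrays of the same group was compared across members at their brightest probes, as a description over 8 arrays. The deviation of each member from its group mean correlated with the mean deviation of the other members at an r between -0.48 (B2m) and 0.86 (Psmb10), so the members did not vary as 1 block. The tested genes whose deviations were most like the mean of the members were Ly6g5b (r = 0.979), D16Ertd472e (0.973), Zfp637 (0.970), Grina (0.950) and Wdr11 (0.948), out of 7749 genes compared. The mean deviation of the members was 0.082 on wild type replicate 3 and -0.079 on wild type replicate 4. On the other arrays it lay between -0.012 and 0.011, so the r values with this mean rest mostly on those wild type arrays. The 8 arrays share 1 normalisation, and these values are no test.

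Markers of other cells were read beside these results. The summed signal of 7 CD8+ T cell marker probes was 78135 to 91494 in wild type and 74245 to 76109 in the knockout, in deposited units. After normalisation 3 of their 5 tested genes were lower and 2 higher, with a median of -0.03 and 0 called. The 5 probes of CD4+ and regulatory T cell markers summed to 668 to 715.8 in wild type and 757.6 to 796 in the knockout. Array medians lay between 127.9 and 133.8 per probe, so most of these sums is background. Of their 2 tested genes Foxp3 rose, by 1.09 ± 0.138 on the log2 scale (limma adjusted p = 0.00576). A second Foxp3 probe was at 1.01 and did not pass. Both were dim, with mean signals of 166.3 and 132.65 in wild type and 223.85 and 161.1 in the knockout. The other tested gene, Zbtb7b, was at -0.0045 ± 0.111 (limma adjusted p = 0.991). The Cd4 probe, detected on 0 wild type arrays and 1 knockout array, averaged 129.05 in wild type and 128.1 in the knockout. B cell probes, 4 of 7 of which were detected on no array, summed to 943.6 to 1026.8 and 956.4 to 1040.9. Their only tested gene, Cd79b, was detected on all 8 arrays at both of its probes. The log2 differences at these were 0.41 ± 0.23 and 0.08 ± 0.282 (limma adjusted p = 0.506 and 0.934). Myeloid probes summed to 2181 to 2526.5 and 2109.8 to 3149.4, natural killer probes to 396.8 to 471.1 and 416.2 to 459.6, and erythroid and platelet probes to 517.2 to 612.6 and 551.9 to 719.7. On the log2 scale the difference was 1.08 ± 0.329 for S100a9, 0.83 ± 0.32 for S100a8, both abundant in neutrophils, and 0.97 ± 0.30 for Hba-a1, which encodes haemoglobin. These had limma adjusted p-values of 0.187, 0.301 and 0.196, overlapping groups and differences larger in size than that of any member probe. Of the 4 tested myeloid genes 3 were higher and 1 lower at the brightest probe, with 0 called. Adgre1 was at 0.56 ± 0.282 and Lyz2 at -0.21 ± 0.189 (limma adjusted p = 0.443 and 0.695). A second Lyz2 probe was at -0.13 (limma adjusted p = 0.78). Itgax was detected on 2 wild type and 0 knockout arrays, and Itgam on 0 of either. The part of these cells in the class I levels was not tested.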

How the data were processed

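RNA was extracted on Qiagen columns, DNase treated and amplified to biotinylated cRNA, per the labels' protocols, and GenomeStudio is named, without a version, per the submitters' processing notes. Per the file headers, the deposited intensity values are not normalized, and a detection p-value was deposited beside every intensity. The authors' deposited value table holds log2 values: it matched quantile-normalized log2 signals centred per probe within 0.00059, with column medians from -0.00045 to 0.00053. Its scale and centring were found from this match and its direction follows the signals.

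Intensities were corrected with limma's nec (offset 16, background from the detection p-values), log2 was taken, and the log2 values were quantile-normalized. Probes detected at p under 0.05 on at least 4 of 8 arrays were tested, 11270 of 25697 (43.9%). limma's lmFit and eBayes compared 4 knockout with 4 wild type arrays, with no other term, and p-values were adjusted by Benjamini-Hochberg over all tested probes at a threshold of 0.05. Each gene was counted only once when any of its probes passed. Ratios used two-sided exact permutation tests adjusted over 5. Intervals are at 95%. The number of arrays limits the precision, and no batch was tested, since no source used here gives slides or scans. The platform annotation gave 1 symbol for 23978 probes, several for 0 and none for 1719, and 23962 were matched through Entrez identifiers to RefSeq names.

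The members and lists were chosen with earlier results of these data known. Named genes were all members, Pycard, called genes of each list and its highest and lowest moderated statistics, Irf1, Ifng, Ciita and 1 gene not reported here, and the 5 genes most like the members by Pearson r of within-group deviations. The ratios, the motif letters and the count of members lower at the brightest probe were added after the data were seen. Alternatives changed the background correction, normalization, detection filter, source of values, variance model, array weights, probes per gene, replicate block and arrays used. The code was tested on simulated arrays. R 4.3.3 and limma 3.58.1 were used.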

Additional observations from a re-analysis of the deposited data

Results flagged for a closer look

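By Dixon's test at 95%, which sets the distance of an extreme array from its neighbour against the range of its group, 6 probe values on 4 of the arrays lay far from their group. With 76 groups of 4 values examined, chance gives about 1 in 20, or 3.8. For Tap1, wild type replicate 1 was above its group, at a log2 level of 9.51 against 9.29 to 9.31. For Tapbp probe ILMN_1226819, knockout replicate 2 was below its group, at 6.48 against 6.998 to 7.05. For Tapbp probe ILMN_3155492, knockout replicate 1 was below, at 5.79 against 6.63 to 6.80. For Irf1 probe ILMN_2649068, knockout replicate 3 was below, at 7.92 against values of 7.98 on the others. For Irf1 probe ILMN_2649067, knockout replicate 1 was above, at 8.44 against 8.31 to 8.32. For Irf9 probe ILMN_1233461, knockout replicate 3 was above, at 9.25 against 9.08 to 9.10.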

How the results depend on the processing

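In 20 alternatives, 0 members were called higher throughout and 9 or 10 of 10 were lower at their brightest probe. The number called lower was 1 (Psmb10) with a background offset of 50, without background correction, with median scaling over all probes, with probes detected on all 8 arrays, with the authors' table and with a variance trend and robust fitting, and 0 in the other 14. The cause of these changes was not tested. The median member difference was -0.27 with median scaling over all probes, which moved the median of all tested probes to -0.08. It ran from -0.20 to -0.12 without 1 array.

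Other pathway genes called, 2 as reported, numbered 6 with the offset of 50, 10 without background correction and in the authors' table (9 lower and 1 higher in each), 8 with trend and robust fitting (7 lower and 1 higher), 1 without the detection filter (Irf1), and 1 (Irf1) in each fit without 1 array. Tested probes called, 95 as reported, numbered 186, 224, 224, 235 and 62 in that order of settings, and 31 to 78 without 1 array. Replicate numbers are shared between the groups, and no source used here says whether they pair the arrays. Same-numbered arrays deviated together at r of 0.0139, 0.107, 0.132 and -0.0999. These values were not set against those of differently numbered arrays, so they cannot decide whether the numbers pair them. With the replicate number as a block 51 probes, 1 other pathway gene (Irf1) and 0 members were called.

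Signs turned, all for differences not called, for Calr with median scaling over all (-0.085) or detected probes (-0.0031) and without wild type replicate 2 (-0.086) or knockout replicate 2 (-0.021) or 4 (-0.025), within -0.086 to 0.058 without 1 array. They turned for Pomp (-0.081) and Creb1 (-0.0036) with median scaling over all probes, and for B2m with cyclic loess (0.040) or without wild type replicate 4 (0.011) or knockout replicate 1 (0.018), within -0.039 to 0.018. Tapbp probe ILMN_3155492 turned without wild type replicate 2 (0.062) or 3 (0.056) or knockout replicate 1 (0.21), within -0.17 to 0.21. Tap2 turned without wild type replicate 3 (0.039) or knockout replicate 2 (0.011), within -0.095 to 0.039, and the Psmb9 to Psmb6 ratio without knockout replicate 4 (0.027), within -0.11 to 0.027.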
